A study of Arabidopsis thaliana with 12 samples.

Results

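The late cold-repressed genes of Arabidopsis thaliana seedlings are 85 genes whose transcripts stood near their starting level after 3 h at 4 °C and were about 4-fold lower or more after 24 h in wild type, and whose level at 24 h in the mutant line cbfs-1 was under 1.5 times that of wild type. They were chosen from 24616 genes on the measured values: a mean normalized read count of at least 100 in wild type before cold, a change at 3 h between -0.5 and 0.5, a change at 24 h of at most -2, both on the scale of log2(group mean + 1), and a cbfs-1 mean at 24 h under 1.5 times that of wild type. The 85 genes are 0.345% of all genes and 0.573% of the 14842 genes that met the first condition, and 38 of them carry a gene symbol. All 85 passed the filter on low values and were tested.

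Seedlings of the wild type Col and of cbfs-1 were 14 days old, had been raised at 22 °C in long days on half-strength MS medium, and were sampled at 0 h, 3 h and 24 h of 4 °C. Each of the 6 groups holds 2 libraries, with recovered totals of 16849042 to 22800552 reads per library. No library is from seedlings kept at 22 °C for 3 h or 24 h. Changes with cold therefore cannot be told apart from changes with time of day or with further growth. The sources used here do not give the lesion of cbfs-1. CBF3 (DREB1A) was at 6133 and 7126 normalized reads in wild type at 3 h and at 1158 and 1095 in cbfs-1, while CBF1 (1129 and 2023 against 1540.4 and 2475) and CBF2 (5093 and 6769 against 7569.9 and 8377) were present in both. Before cold CBF3 was at 15.3 and 7.59 in wild type and 175 and 138 in cbfs-1, and at 24 h at 404 and 180.3 against 893 and 799, so cbfs-1 was the lower genotype at 3 h and the higher one at 0 h and 24 h. These whole seedlings mix organs and cell types, so fewer cells of a type and less RNA per cell cannot be told apart. Of the markers chosen for cell types, 17 root, 8 mesophyll, 13 vascular and 11 guard cell genes were tested and only 2 of the floral and seed genes, and none of the 85 genes is among them. In wild type at 24 h, 12 of the 17 root markers had fallen, against 8 fallen and 2 risen in cbfs-1, and in wild type 5 mesophyll and 7 vascular markers had fallen and of the guard cell markers 2 had fallen and 5 risen. Of all genes tested with limma, 24.3% had fallen and 25.7% had risen in wild type at 24 h, and 23.3% and 24.9% in cbfs-1. The summed level of the root markers was 5221 and 5391 in the wild type libraries at 0 h and 3630 and 3755 at 24 h, and 5169 and 5667 against 3982 and 4705 in cbfs-1. The part of these changes in the results was not tested.

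Cold slows water uptake by roots, growth and the use of sugars, and plants answer it in waves: CBF transcription factors appear within hours and switch on protective genes, and large sets of genes of growth and metabolism are turned down later. Aquaporins are the membrane channels that carry water through the plasma membrane (PIP type) and the vacuolar membrane (TIP type). Invertases and sucrose synthases split sucrose for growing tissues, and xyloglucan and pectin enzymes remodel the wall of expanding cells. Genes of all these kinds are among the 85.

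A short hexamer, the I-box GATAAG, stood before a larger share of the 85 genes than of other genes. In the 250 bases before the annotated gene start, read from TAIR10.1 on both strands, it had a match in 26 of the 85 genes (30.6%) and in 12.4% of the 14756 genes with such a window and a starting mean of at least 100. The 5 windows below are shown because each belongs to a gene described below and holds the I-box at least once. They read 5′ to 3′ on the strand of the gene. Capitals mark the I-box (GATAAG or its reverse complement CTTATC) and the sugar-repressive element (TTATCC or its reverse complement GGATAA), and CTTATCC holds both, overlapping. PIP1A is at chr3:22732993-22733242 (plus strand), TIP2;3 at chr5:19249623-19249872 (minus strand), SEN1 at chr4:16944628-16944877 (plus strand), TPS8 at chr1:26474834-26475083 (minus strand) and MLP329 at chr2:239419-239668 (plus strand).
PIP1A: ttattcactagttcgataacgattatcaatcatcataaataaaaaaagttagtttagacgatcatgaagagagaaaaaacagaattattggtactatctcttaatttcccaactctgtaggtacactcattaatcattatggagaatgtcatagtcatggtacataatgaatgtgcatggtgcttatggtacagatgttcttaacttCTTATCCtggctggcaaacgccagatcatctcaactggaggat
TIP2;3: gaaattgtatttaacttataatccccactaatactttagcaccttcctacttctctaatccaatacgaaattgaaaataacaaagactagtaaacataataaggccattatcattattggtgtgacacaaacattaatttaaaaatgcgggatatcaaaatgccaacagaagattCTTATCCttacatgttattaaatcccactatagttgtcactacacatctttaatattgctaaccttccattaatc
SEN1: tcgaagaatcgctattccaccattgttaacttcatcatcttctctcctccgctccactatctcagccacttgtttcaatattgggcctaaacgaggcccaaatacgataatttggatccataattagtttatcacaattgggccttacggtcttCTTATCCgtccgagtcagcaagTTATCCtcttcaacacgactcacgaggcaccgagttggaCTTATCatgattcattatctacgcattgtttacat
TPS8: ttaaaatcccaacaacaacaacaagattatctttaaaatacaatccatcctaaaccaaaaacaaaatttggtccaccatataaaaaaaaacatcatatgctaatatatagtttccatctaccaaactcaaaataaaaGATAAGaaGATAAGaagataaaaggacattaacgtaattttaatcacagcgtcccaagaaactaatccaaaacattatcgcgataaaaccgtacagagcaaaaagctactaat
MLP329: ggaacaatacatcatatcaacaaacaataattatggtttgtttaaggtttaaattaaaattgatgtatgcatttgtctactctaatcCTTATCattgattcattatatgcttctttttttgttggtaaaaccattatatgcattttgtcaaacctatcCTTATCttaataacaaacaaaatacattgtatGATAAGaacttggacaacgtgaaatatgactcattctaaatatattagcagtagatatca
The match of PIP1A lies 43 to 38 bases before the start and that of TIP2;3 lies 75 to 70 bases before it. SEN1 has a match at 96 to 91 and another at 35 to 30 bases, TPS8 has a close pair at 113 to 108 and 105 to 100 bases, and MLP329 has 3 matches, at 163 to 158, 92 to 87 and 60 to 55 bases.

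Of the 14 motifs searched, 8 stood before a smaller share of the 85 genes than of the wider set and 6 before a larger one. Of those with a smaller share, site II and the CRT/DRE core had the widest gaps in percentage points. The site II element TGGGCC, known from genes of ribosomal proteins and of dividing cells, had a match in 3 of the 85 genes (3.53%, against 18.0% of genes). The CRT/DRE core CCGAC, the letters that CBF proteins bind, had a match in 6 of the 85 (7.06%, against 13.1%). Among the 99 genes with the same fall at 24 h that were already more than 0.5 lower at 3 h, the I-box had a match in 21.2%, site II in 7.07% and CCGAC in 8.08%. Among the 25 genes with a window of the 27 that missed the set only by a higher cbfs-1 level at 24 h, 4 held the I-box (16%) and none site II or CCGAC. The sugar-repressive element had a match in 18.8% of the 85 genes, 22.2% of the 99 genes and 13.5% of the wider set. The evening element AAAATATCT had no match in the 85 windows and a match in 2.44% of the wider set. Shares for the G-box CACGTG (8.24% against 7.51%), the W-box core TTGAC (43.5% against 44.3%) and TATAAA (43.5% against 45.8%) lay close to each other, and the ABRE core ACGTG, which lies inside the G-box, had 29.4% against 23.5%. The CAMTA core CGCG (7.06% against 10.6%), the CCA1-binding site AAAAATCT (4.71% against 6.87%) and the telo-box AAACCCTA (2.35% against 3.46%) had smaller shares in the 85, and the GCC-box GCCGCC (3.53% against 1.84%) and the auxin response element TGTCTC (10.6% against 10.5%) larger ones. In a window of 500 bases, chosen after seeing the data, the I-box had a match in 40.0% of the 85 genes and 22.6% of the wider set, and in 37.4% of the 99 early genes. In that longer window site II had 9.41% against 22.0%, CCGAC 15.3% against 23.1% and the sugar-repressive element 28.2% against 23.5%. These shares were not tested, and a match is a run of letters, not a known binding site. The windows of the 85 genes held a median of 29.6% G and C, against 31.2%.

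**Figure D1:**
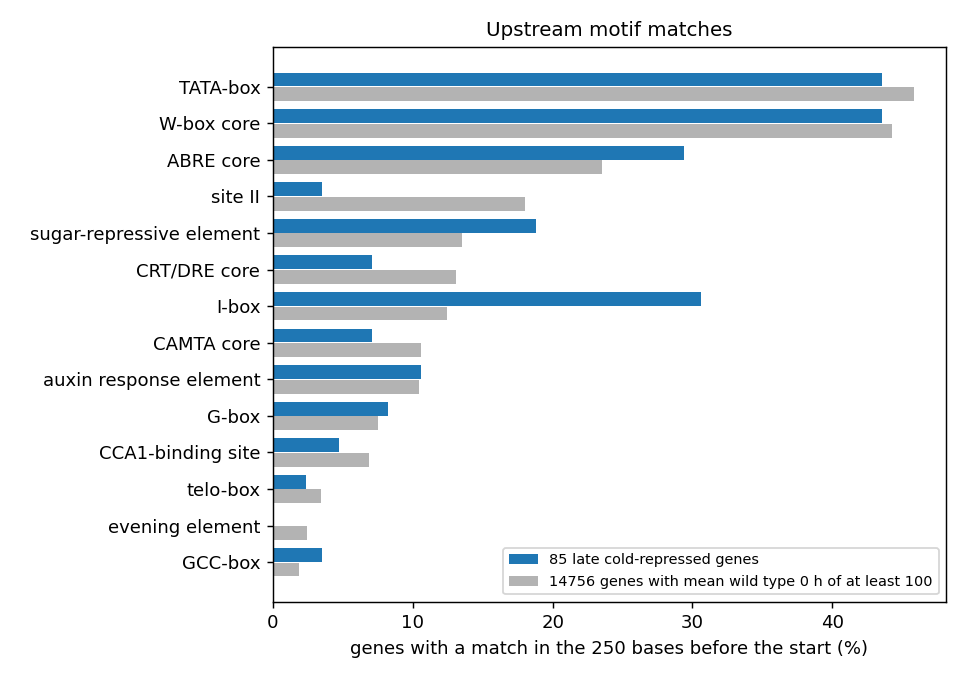
Share of genes (%) with at least 1 match to each of 14 motifs in the 250 bases before the gene start, for the 85 late cold-repressed genes and for the 14756 genes with a starting mean of at least 100. The I-box bar of the 85 genes (30.6%) stands well above the grey bar (12.4%), and that of site II (3.53%) well below it (18.0%).

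The genes were chosen to be flat in wild type at 3 h, and the cbfs-1 libraries at 0 h and 3 h are those that the choice did not use. They are not fully independent of it: deviations from the group mean in libraries of the same number went together between the genotypes, with correlations across genes of 0.486 at 0 h and 0.565 at 3 h. None of the 85 genes was called in cbfs-1 at 3 h against 0 h with limma (adjusted p below 0.05, adjusted over all 20666 genes tested), where 8.85% of all genes were called, 2.41% as lower and 6.43% as higher. Of the 12789 genes chosen only for being flat in wild type at 3 h, 2.24% were called in cbfs-1. Of the 85 genes, 5 were lower and 1 was higher at an unadjusted p below 0.05 in limma. The share of all genes at that looser threshold was not computed, so nothing is read from this count. edgeR and DESeq2 on the recovered reads each called 1 of the 85 as lower, with 9.09% and 9.51% of all genes called. With a term for the replicate number added, limma called 2 of the 85 as lower and 1 as higher, with 14.8% of all genes called. On the scale of group means, the change in cbfs-1 ran from -1.20 to 0.475 with a median of -0.109, against a median of -0.031 over genes with a starting mean of at least 100, and 80 of the 85 genes (94.1%) stayed within 0.5 of zero, against 87.2% of those genes and 97.6% of the genes flat in wild type.

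A call that misses the threshold does not show that a gene stayed the same. The 95% interval of the cbfs-1 change at 3 h lay within 1 log2 unit of zero for 66 of the 85 genes (77.6%, against 87.9% of genes) and within 0.5 for 13 (15.3%, against 55.6%). These intervals are from the fit without a term for the replicate number. Same-numbered libraries deviated together, so the width of the intervals may include differences that 0 h and 3 h share. For 58 of the 85 the libraries at 3 h overlapped those at 0 h. Both libraries at 3 h lay below both at 0 h for 22 genes (25.9%, against 26.2% of all genes tested), and above both for 5 (5.88%, against 24.8%). Across the 85 genes the cbfs-1 change at 3 h went with the wild type change (Pearson's r 0.721, Spearman's rho 0.763), as it did across the genes flat in wild type (0.771 and 0.761). These are correlations across genes, which are not independent replicates, and the libraries of both genotypes share replicate numbers.

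**Figure D2:**
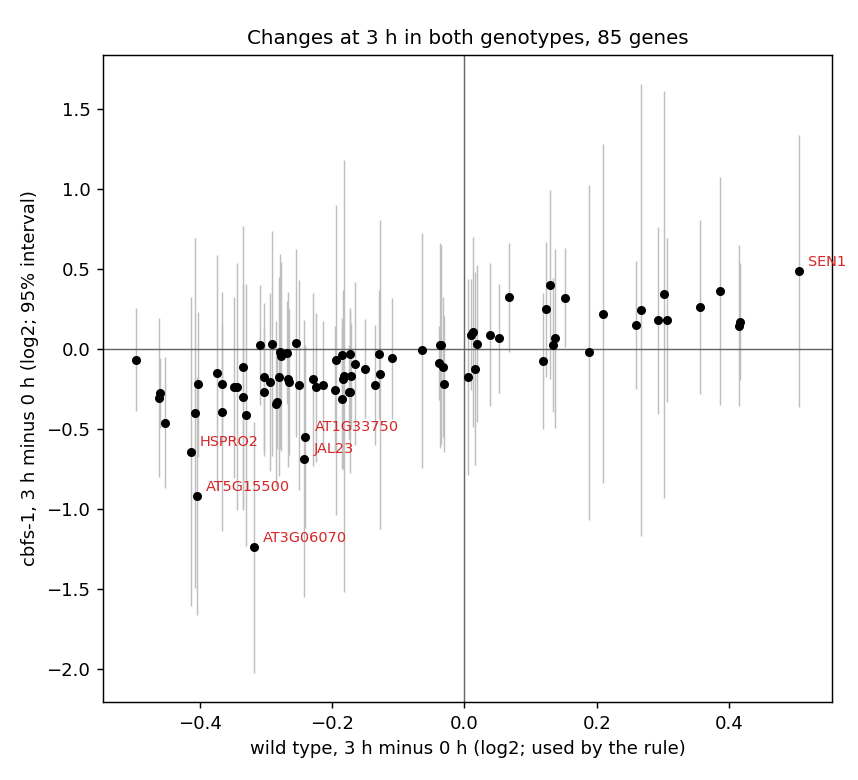
Change from 0 h to 3 h on the log2(value + 1) scale in wild type (horizontal, used for the choice) and in cbfs-1 (vertical, limma estimate with its 95% interval), 1 point per gene. AT3G06070 stands lowest in cbfs-1, at -1.24, and most of the other points lie within 0.5 of zero on both axes.

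AT3G06070, which encodes an uncharacterized protein, moved furthest in cbfs-1 at 3 h. Its normalized read counts, given throughout as replicates 1 and 2 of a group in that order, were 409.5 and 518 in wild type before cold, 289.9 and 469.9 after 3 h and 55.0 and 85.8 after 24 h. The mutant had 458 and 530.0 before cold, 163 and 266 after 3 h and 31.3 and 55.3 after 24 h. Both mutant libraries at 3 h lay below both at 0 h, and the replicates of wild type at 3 h overlapped those at 0 h. The change in cbfs-1 was -1.24 (95% interval -2.02 to -0.45, adjusted p = 0.0594 with limma), a value that edgeR put at -1.21 (adjusted p = 0.0387) and DESeq2 at -1.20 (adjusted p = 0.00566). By limma, the difference between the genotypes' changes was called for none of the 85 genes at 3 h or at 24 h. The choice had used the wild type side of this difference. Of all genes, 0.00484% were called at 3 h and 0.00968% at 24 h. At an unadjusted p below 0.05 in limma stood 0 of the 85 genes at 3 h and 7 at 24 h. The share of all genes at that threshold was not computed, so nothing is read from these 2 counts.

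The other genes under an unadjusted p of 0.05 in limma were not called in the fit without a term for the replicate number. With that term limma called AT5G15500 (adjusted p = 0.0358), AT2G32880 (adjusted p = 0.0476) and AT3G06070 (adjusted p = 0.000596). AT5G15500, an ankyrin repeat protein, was at 162 and 131 in cbfs-1 at 0 h and 79.7 and 73.5 at 3 h. The groups did not overlap, and the change of -0.92 had an adjusted p of 0.135 in limma. AT2G32880, a TRAF-like protein, was at 554 and 449.6 in cbfs-1 at 0 h and 657 and 593 at 3 h, again without overlap. Its change was in the other direction, at 0.32, with an adjusted p of 0.208 in limma. XTH7 (-0.27, adjusted p = 0.125), UMAMIT45 (-0.33, adjusted p = 0.169) and AT4G33560 (-0.46, adjusted p = 0.170) complete these 6, by limma.

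At 24 h the fall in wild type, which chose the genes, had a median of -2.53 and ran from -5.17 to -2.01. All 85 genes were called as lower in wild type (24.3% of all genes called as lower) and all 85 in cbfs-1 (23.3%), where both libraries at 24 h lay below both at 0 h for all 85 genes (38.2% of genes) as they did in wild type (37.8%). Since the choice used these contrasts, nothing is read from the counts. AT2G29300 and AT4G39675 each had a library at 24 h at or under 3 reads and are described by reads below. For the other 83 genes the fall in wild type was 4.08-fold to 37.2-fold with a median of 5.76-fold. In cbfs-1 it was 3.04-fold to 38.7-fold with a median of 5.18-fold. The rule held cbfs-1 at 24 h under 1.5 times wild type, so it largely built in a fall there too. In cbfs-1 63 of the 85 genes were more than 4-fold lower and 22 were not. Of the 14842 genes with a starting mean of at least 100, 201 were at -2 or lower there, on the scale of log2(group mean + 1). The ratio of the cbfs-1 mean to the wild type mean at 24 h ran from 0.592 to 1.5 with a median of 1.13 over the 83 genes, and it was above 1 for 54 and at or below 1 for 29. Both cbfs-1 libraries at 24 h lay above both of wild type for 29 genes (22% of all genes tested) and below both for 8 (21.3%). The choice favoured low wild type values at 24 h and cut the ratio at 1.5, so it can itself tilt these ratios and counts. Nothing about the genotypes is read from them, here or for the single genes below. Before cold and at 3 h none of the 85 differed between the genotypes by the call (0.0387% and 0.0290% of all genes called), and at 24 h TIP2;2 alone did (0.808% of all genes called, 0.266% as higher in cbfs-1).

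**Figure D3:**
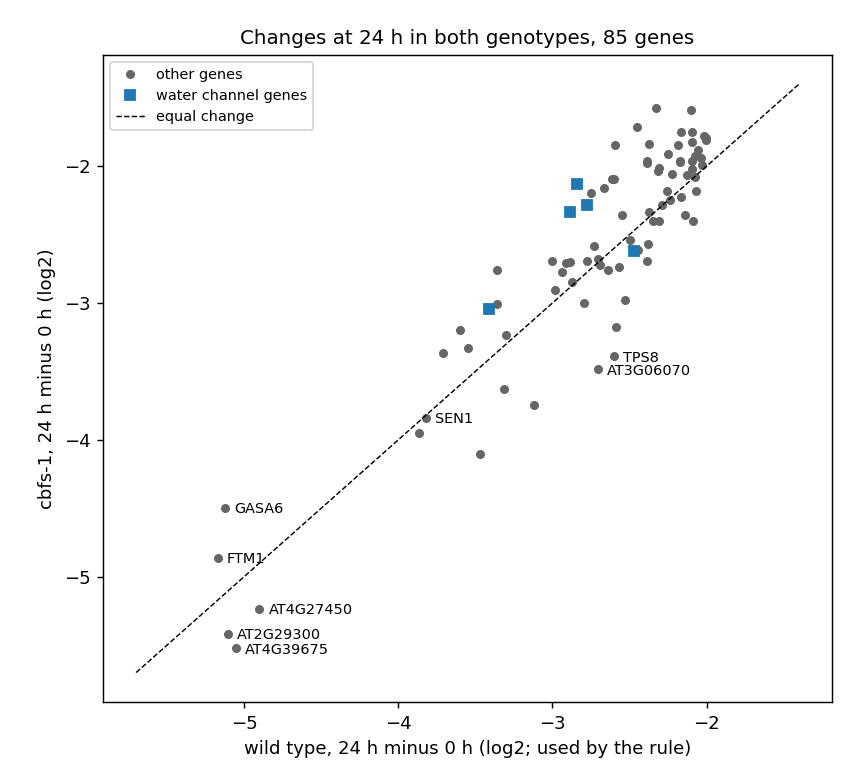
Change from 0 h to 24 h on the scale of log2(group mean + 1) in wild type (horizontal, used for the choice) and cbfs-1 (vertical), 1 point per gene, with the line of equal change dashed. The points follow the line from about -2 to below -5. 4 of the 5 water channel genes lie above it, and TPS8 and AT3G06070 lie below it.

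**Figure D4:**
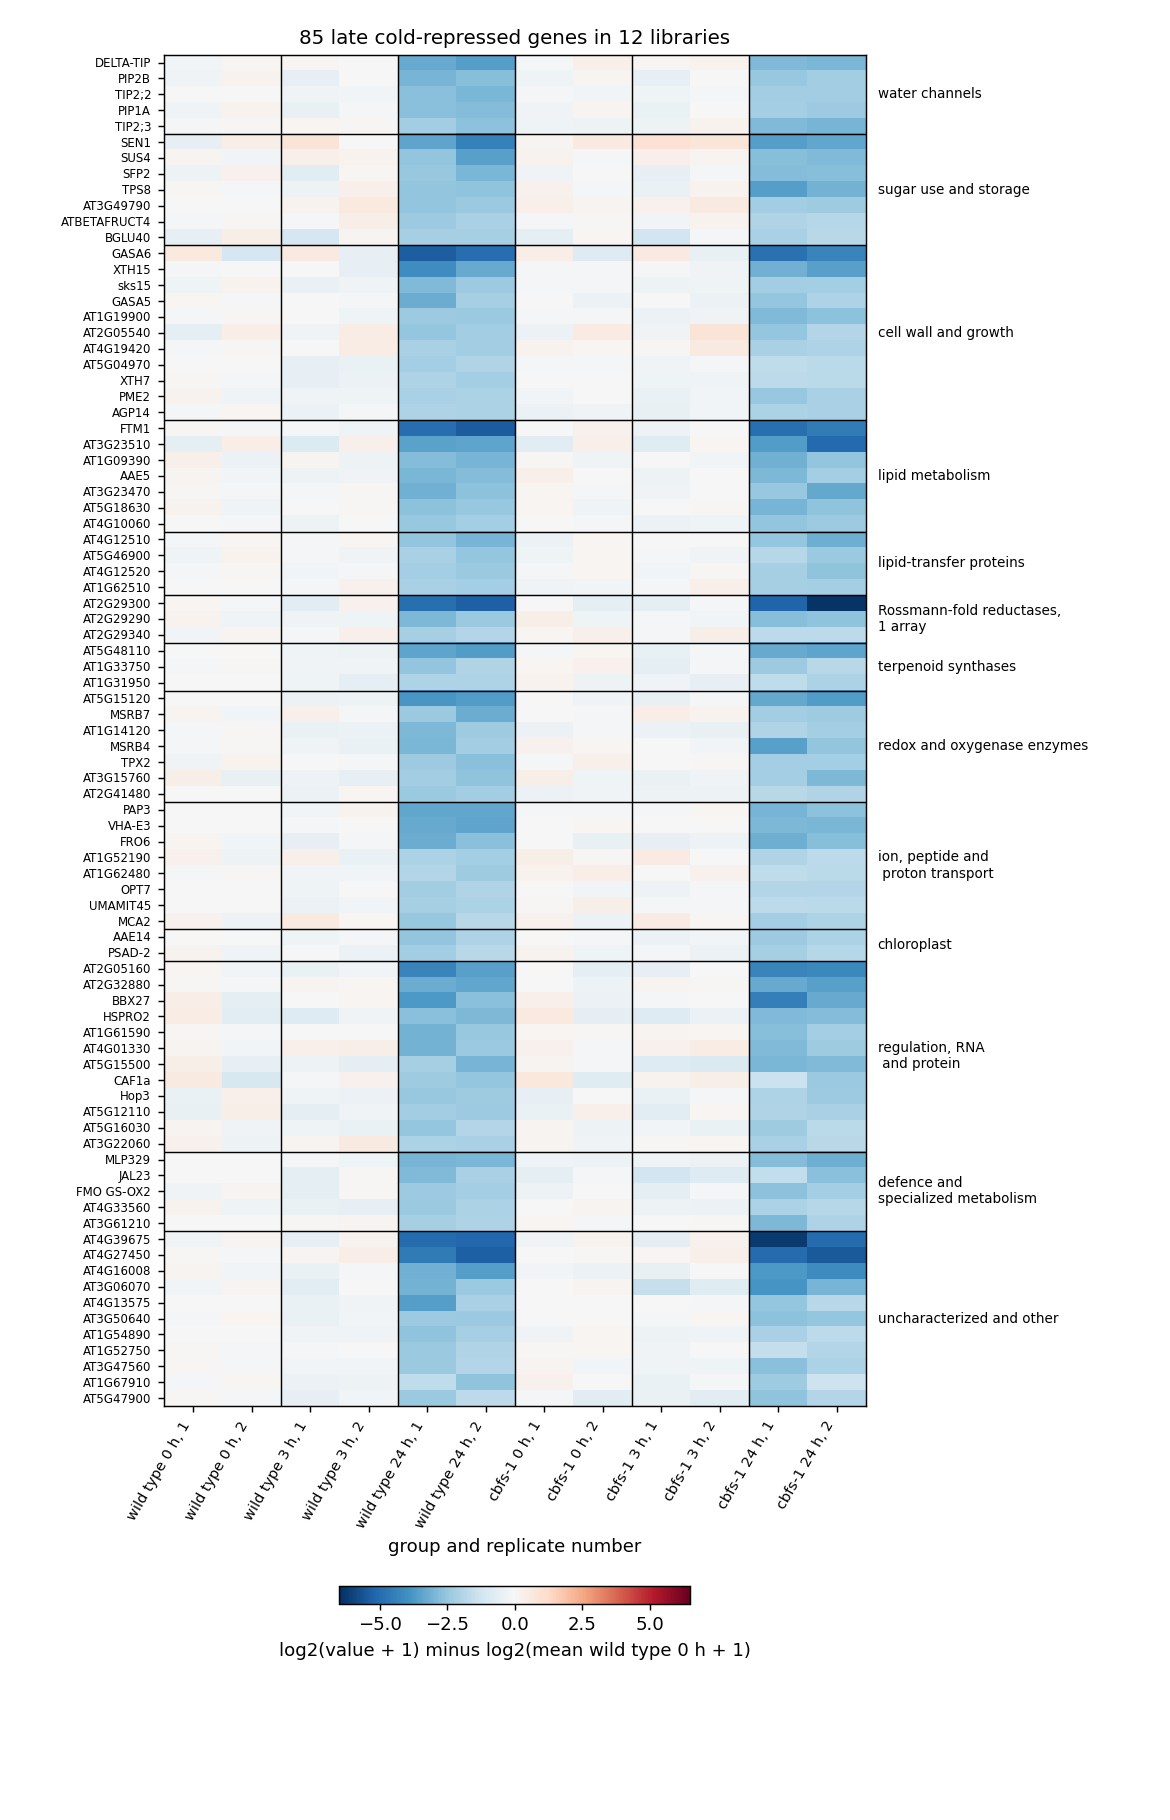
Each of the 85 genes (rows, in 13 groups by role) in each of the 12 libraries (columns), as log2(value + 1) minus log2(mean of wild type 0 h + 1). The columns at 0 h and 3 h are pale and the 4 columns at 24 h are blue throughout, at -2 and lower in wild type means. GASA6, FTM1, AT4G27450, AT4G39675 and AT2G29300 are the darkest rows.

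Among the 30 gene lists used, the aquaporins had the largest share in the set: 5 of the 19 with a starting mean of at least 100 were among the 85 (26.3%, with 8.70% for expansins and xyloglucan enzymes next). DELTA-TIP (AT3G16240), a water and ammonia channel of the vacuolar membrane, was at 9484 and 11783 in wild type before cold, 11122 and 10791 after 3 h and 1095 and 902 after 24 h, and in cbfs-1 at 9971 and 13157, then 11605 and 12428, then 1439.9 and 1367. No library at 24 h came near those of 0 h or 3 h, and both cbfs-1 libraries at 24 h were above both of wild type. The mean was 10.7-fold lower in wild type and 8.24-fold lower in cbfs-1. PIP1A (AT3G61430), a plasma membrane water channel, was at 7551 and 10294 in wild type before cold, 6453 and 8332 after 3 h and 1352 and 1253 after 24 h, and in cbfs-1 at 7712 and 9980.1, then 6512 and 8879.9, then 1908 and 1721, with the same order at 24 h. PIP2B (AT2G37170), of the other plasma membrane type, was at 5270.4 and 7191 in wild type before cold, 4280.0 and 6112 after 3 h and 765 and 920.1 after 24 h, and in cbfs-1 at 5213 and 6964, then 4368 and 6405, then 1121 and 1290.2. Replicate 2 was the higher library of PIP1A and PIP2B at 0 h and 3 h in both genotypes.

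TIP2;2 (AT4G17340), another vacuolar channel, was at 3307 and 3437 in wild type before cold, 2899.7 and 3033 after 3 h and 512 and 428 after 24 h, and in cbfs-1 at 3158 and 2996, then 2803 and 3221, then 705 and 702. Its cbfs-1 libraries at 24 h were close to each other and above both of wild type, at 1.5 times the wild type mean after rounding, just under the rule's limit. The limma difference at 24 h had an adjusted p of 0.0346, in a contrast that the choice used. TIP2;3 (AT5G47450) was at 347 and 379.7 in wild type before cold, 401 and 389.6 after 3 h and 74 and 55.6 after 24 h, and in cbfs-1 at 296 and 288, then 287 and 419, then 49.6 and 43.5, and here both cbfs-1 libraries at 24 h were below both of wild type. In cbfs-1 at 3 h against 0 h, none of the 19 aquaporin genes was called in limma, with a median change of -0.04, and the 95% interval of TIP2;2 was -0.26 to 0.19. In wild type at 24 h 15 of the 19 fell and 1 rose, and in cbfs-1 14 fell and 1 rose, with medians of -1.45 and -1.21. The 15 and the 14 include the 5 that were chosen for their fall. Of the other 14 genes, 10 fell in wild type and 9 in cbfs-1, where 24.3% and 23.3% of all genes tested fell. The 1 that rose in wild type was PIP2;5, by 1.03. Root markers also fell at 24 h, 12 of 17 in wild type and 8 of 17 in cbfs-1, and their part in the water channel values was not tested.

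**Figure D5:**
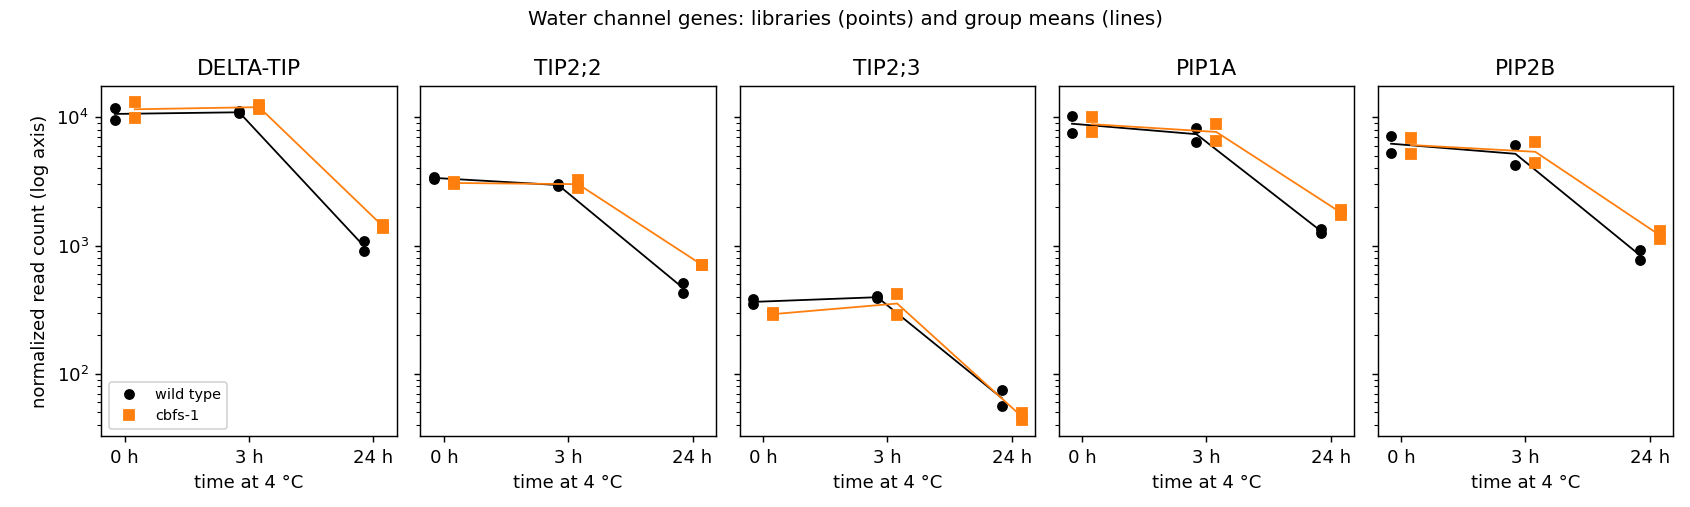
Normalized read counts (log axis) of the 5 water channel genes at 0 h, 3 h and 24 h of 4 °C in wild type (black circles) and cbfs-1 (orange squares), with points for libraries and lines through group means. All 5 genes are level from 0 h to 3 h and lower at 24 h, with cbfs-1 above wild type at 24 h except for TIP2;3.

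Genes grouped here under sugar use and storage made up 7 of the 85. SEN1 is among them by that grouping and not by its annotated product. SUS4 (AT3G43190), a sucrose synthase known from tissues short of oxygen, was at 1044 and 816 in wild type before cold, 1178 and 1085 after 3 h and 154 and 79.0 after 24 h, and in cbfs-1 at 1108 and 887, then 1190.0 and 1059.8, then 136 and 129. ATBETAFRUCT4 (AT1G12240), an invertase of the vacuole, was at 2613 and 2925 in wild type before cold, 2538 and 3628 after 3 h and 532 and 633 after 24 h, and in cbfs-1 at 2623 and 2905, then 2412 and 3277, then 709 and 762. TPS8 (AT1G70290), a class II relative of trehalose-phosphate synthase, was at 1682 and 1475 in wild type before cold, 1241 and 2012 after 3 h and 264 and 253 after 24 h, and in cbfs-1 at 1886 and 1465, then 1183 and 1837, then 130.4 and 188. Their groups at 24 h did not overlap those before. TPS8 was lower in cbfs-1 than in wild type at 24 h (10.5-fold below its start against 6.09-fold), without a call between the genotypes in limma. SEN1 (AT4G35770), a gene known for its rise in darkness and ageing leaves, was at 372 and 716 in wild type before cold, 965 and 558 after 3 h and 49.7 and 25.3 after 24 h, and in cbfs-1 at 608 and 804, then 1028 and 935, then 45.3 and 51.6. It stood nearest to the upper limit on the change at 3 h, and both mutant libraries at 3 h were above both at 0 h. The change in cbfs-1 at 3 h was 0.49 with a 95% interval of -0.36 to 1.34, and it was not called in limma (adjusted p = 0.516). SFP2, a sugar transporter of the facilitator type, BGLU40, a beta glucosidase, and AT3G49790, a carbohydrate-binding protein, were 6.58-fold, 4.5-fold and 5.76-fold lower in wild type at 24 h.

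Close relatives of these genes, chosen after their values were seen, had other values. SUS1 rose in wild type from 1390.2 and 1335 at 0 h to 20179 and 11898 at 24 h and in cbfs-1 from 1352 and 1391 to 3857 and 3074, by 3.51 and 1.33 on the log2 scale (limma adjusted p = 6.25e-06 and 0.000919). AT1G62660, the other vacuolar invertase, fell by 1.09 in wild type and by 0.89 in cbfs-1 (limma adjusted p = 0.000205 and 0.000652). TPS11 was higher in wild type at 3 h, by 1.21 (limma adjusted p = 0.0249), and lower at 24 h, by 1.78 (adjusted p = 0.000803). Of the 16 sugar starvation genes tested, a list on which TPS8 stands, 12 fell and 3 rose at 24 h in each genotype, while in cbfs-1 at 3 h 7 rose and none fell in limma, with a median of 0.56. Without TPS8, 11 of 15 fell at 24 h in each genotype. Over all genes tested 24.3% fell and 25.7% rose at 24 h in wild type, 23.3% and 24.9% in cbfs-1, and in cbfs-1 at 3 h 6.43% rose and 2.41% fell. SEN1 was left out of that list because its symbol names 2 loci in the annotation.

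Enzymes and peptides of the wall and of growth made up 11 of the 85. GASA6 (AT1G74670), a small peptide induced by gibberellin, was at 2945 and 885 in wild type before cold, 2853 and 1324 after 3 h and 46.5 and 61.4 after 24 h, and in cbfs-1 at 2612 and 1080.0, then 2891 and 1373, then 65.7 and 96.0. Replicate 1 was more than 2-fold above replicate 2 at 0 h and 3 h in both genotypes, and no library at 24 h came near either. The mean was 35.5-fold lower in wild type and 22.8-fold lower in cbfs-1. XTH15 (AT4G14130), which cuts and rejoins xyloglucan, was at 234 and 251 in wild type before cold, 239.5 and 166 after 3 h and 13.8 and 24.4 after 24 h, and in cbfs-1 at 218 and 229, then 226 and 207, then 26.9 and 19.9. XTH7 (AT4G37800), of the same family, was at 3277 and 2911 in wild type before cold, 2123 and 2375 after 3 h and 775 and 672 after 24 h, and in cbfs-1 at 3126 and 3200.2, then 2595 and 2637, then 954 and 928, and both genotypes' libraries at 3 h were already below those at 0 h. It was the 1 gene called as lower in wild type at 3 h, by 0.46 (3.21% of all genes were called as lower there). GASA5, another gibberellin-regulated peptide, was at 226 and 189.9 in wild type at 0 h and 21.2 and 45.8 at 24 h. The pectin enzymes PME2, AT4G19420 and AT5G04970 were 4.25-fold, 4.51-fold and 4.41-fold lower in wild type at 24 h, and 4.59-fold, 4.69-fold and 3.06-fold lower in cbfs-1. The rest were AGP14, an arabinogalactan protein, sks15, AT1G19900 and the glycine-rich AT2G05540, at 4.08-fold to 6.31-fold lower in wild type. Of 26 tested genes of expansins and xyloglucan enzymes, 12 fell and 6 rose in wild type at 24 h, and 2 fell and 6 rose in cbfs-1 at 3 h, with shares over all genes of 24.3% and 25.7%, and of 2.41% and 6.43%. The 12 include XTH15 and XTH7, and of the 24 others 10 fell. GASA1, a relative chosen after its values were seen, rose in wild type at 24 h by 1.05 (limma adjusted p = 0.000104), and its change of 0.22 in cbfs-1 had an adjusted p of 0.131. GASA4, chosen in the same way, went the other way, with changes of -0.45 in wild type and -0.35 in cbfs-1 (limma adjusted p = 0.00580 and 0.0195).

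Lipid enzymes gave 7 genes and lipid-transfer proteins 4. FTM1 (AT1G43800), of the plastid desaturases that place the first double bond in stearic acid, was at 1228 and 1126 in wild type before cold, 1098 and 973 after 3 h and 37.0 and 26.3 after 24 h, and in cbfs-1 at 1194 and 1441, then 928 and 1206, then 38.8 and 49.8. The 4 libraries at 24 h lay far below the other 8, and the mean was 37.2-fold lower in wild type and 29.7-fold lower in cbfs-1. AT3G23510, annotated as a cyclopropane fatty acid synthase, was at 134 and 291 in wild type before cold, 115 and 264 after 3 h and 18.0 and 18.5 after 24 h, and in cbfs-1 at 131 and 272, then 121 and 234, then 16.2 and 5.44. Replicate 2 was well above replicate 1 at 0 h and 3 h in both genotypes, and the cbfs-1 libraries at 24 h differed by 1.42 on the log2 scale, with replicate 1 higher. AAE5, an acyl activating enzyme, the GDSL lipase AT1G09390, the hydrolase AT5G18630 and the beta glucosidase AT4G10060 were 5.09-fold to 7.68-fold lower in wild type at 24 h. The lipid-transfer proteins AT4G12510, AT5G46900, AT4G12520 and AT1G62510 were 4.53-fold to 7.17-fold lower. That class held 4.71% of the 85 genes and 0.364% of genes with a starting mean of at least 100, by the words of the annotation.

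Transport proteins, phosphatases and the proton pump gave 8 genes. VHA-E3 (AT1G64200), a subunit of the proton pump of the vacuole, was at 406 and 404 in wild type before cold, 381 and 408 after 3 h and 40.2 and 37.0 after 24 h, and in cbfs-1 at 407 and 446, then 396 and 406, then 52.8 and 51.6. Replicates of a group lay close together, and both cbfs-1 libraries at 24 h were above both of wild type. The other subunit E gene that passed the filter, TUF (AT4G11150, chosen after its values were seen), went in wild type from 4614 and 4501 to 5558 and 5218 after 24 h and rose by 0.24 (limma adjusted p = 0.0216). PAP3 (AT1G14700), a purple acid phosphatase, was at 471 and 465 in wild type before cold, 411 and 540.2 after 3 h and 44.4 and 44.8 after 24 h, and in cbfs-1 at 438 and 449.6, then 440.0 and 506, then 57.1 and 72.5. FRO6 (AT5G49730), a ferric reductase of leaf cell membranes, was at 3714 and 2865 in wild type before cold, 2285 and 3101 after 3 h and 355 and 502 after 24 h, and in cbfs-1 at 3407 and 2335, then 2286 and 2617, then 359 and 477. Its groups at 24 h lay far under the rest in both genotypes, and its relative FRO7 fell by 2.36 in wild type (limma adjusted p = 0.000668). OPT7, UMAMIT45, AT1G52190, AT1G62480 and MCA2, which carry or bind peptides, amino acids or ions, were 4.27-fold to 4.38-fold lower in wild type.

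Redox enzymes gave 7 genes. AT5G15120, annotated as a putative 2-aminoethanethiol dioxygenase, was at 256 and 258 in wild type before cold, 196 and 202 after 3 h and 18.0 and 19.5 after 24 h, and in cbfs-1 at 259.6 and 221, then 182 and 232, then 24.8 and 19.9. MSRB4 and MSRB7 repair oxidized methionine. MSRB7 was at 173 and 136 in wild type before cold, 195 and 144 after 3 h and 28.6 and 15.6 after 24 h, and in cbfs-1 at 151 and 141, then 208 and 180.1, then 31.3 and 30.8, and MSRB4 was 6.21-fold lower in wild type at 24 h and 9.47-fold lower in cbfs-1. At 24 h the MSRB7 libraries of cbfs-1 were above both of wild type. The relatives MSRB5 and MSRB9, chosen after their values were seen, fell by 1.94 and 2.02 in wild type (limma adjusted p = 3.47e-06 and 1.18e-05), while MSRB1 was at -0.13 and MSRB3 at 0.28 without a call (limma adjusted p = 0.341 and 0.0888). In cbfs-1 MSRB5 and MSRB9 fell by 1.47 and 1.03 (limma adjusted p = 1.59e-05 and 0.000383). MSRB1 was at -0.24 and MSRB3 at 0.35 there (limma adjusted p = 0.0986 and 0.0455). MSRB9 at 24 h was at 186 and 192 in wild type and 413 and 317 in cbfs-1. TPX2, a peroxiredoxin, the peroxidase AT2G41480, the cytochrome P450 AT3G15760 and the oxygenase AT1G14120 were 5.19-fold to 6.18-fold lower in wild type. AT2G41480 had the smallest fall of all 85 in cbfs-1, at 3.04-fold.

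PSAD-2 (AT1G03130), the ferredoxin-docking subunit of photosystem I, and AAE14 (AT1G30520), which acts in the synthesis of its phylloquinone, were the 2 genes of the photosynthetic membrane. PSAD-2 was at 23327 and 15934 in wild type before cold, 19154 and 15033 after 3 h and 4066 and 5562 after 24 h, and in cbfs-1 at 22999 and 16166, then 18863 and 15190.5, then 4368 and 5454. Replicate 1 was the higher library at 0 h and 3 h and replicate 2 at 24 h, in both genotypes, and the groups at 24 h did not overlap the rest. Its near copy PSAD-1, whose reads can be hard to tell from those of PSAD-2, fell by 0.82 in wild type and by 0.79 in cbfs-1 (limma adjusted p = 0.00505 and 0.00641). AAE14 was 4.8-fold lower in wild type and 4.56-fold in cbfs-1. None of the 19 light harvesting genes tested was among the 85, which are 0.573% of the genes with a starting mean of at least 100. Of the 19, 7 fell in wild type at 24 h, against 24.3% of all genes tested.

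Regulators and genes of RNA and protein turnover made up 12. BBX27 (AT1G68190), a B-box zinc finger protein, was at 525 and 256 in wild type before cold, 405 and 432 after 3 h and 28.6 and 59.5 after 24 h, and in cbfs-1 at 488 and 301, then 373 and 384, then 17.2 and 39.9. CAF1a (AT3G44260), a deadenylase that shortens mRNA tails, was at 422 and 136 in wild type before cold, 261 and 333 after 3 h and 56.1 and 48.7 after 24 h, and in cbfs-1 at 453 and 164, then 328 and 366, then 103 and 51.6. HSPRO2 (AT2G40000), an orthologue of a nematode resistance gene of sugar beet, was at 2521 and 1119 in wild type before cold, 1009.6 and 1572 after 3 h and 278 and 244 after 24 h, and in cbfs-1 at 2794 and 1230.5, then 1004 and 1406, then 249 and 253. In these 3 genes replicate 1 was well above replicate 2 at 0 h in both genotypes and the groups at 0 h and 3 h overlapped. In HSPRO2 the cbfs-1 change at 3 h was -0.64 with limma (95% interval -1.61 to 0.32), and it was -0.05 without replicate 1 at 0 h and -1.23 without replicate 2. The mean of BBX27 was lower in cbfs-1 than in wild type at 24 h (13.8-fold against 8.88-fold below the start). Its libraries of the 2 genotypes overlapped there, and the difference was not called in limma. AT2G05160, a CCCH zinc finger protein, was at 112 and 90.1 in wild type before cold, 75.5 and 89.2 after 3 h and 4.23 and 7.80 after 24 h, and in cbfs-1 at 101 and 64.4, then 69.9 and 98.1, then 4.31 and 4.53. Its values at 24 h lie close to those of 3 reads (2.46 to 3.28), so the size of its fall is uncertain. Hop3 (AT4G12400), a co-chaperone that links the Hsp70 and Hsp90 machines, was 5.32-fold lower in wild type and 3.95-fold in cbfs-1, while its relatives Hop1 and Hop2, chosen after their values were seen, rose by 0.51 and 0.98 in wild type (limma adjusted p = 0.000514 and 5.67e-05). The kinases AT1G61590 and AT4G01330, the receptor-like kinase relative AT3G22060, AT5G15500, AT2G32880, the elongation factor subunit AT5G12110 and AT5G16030 were 4.25-fold to 10-fold lower. No MYB, bHLH or NAC factor is among the 85 by the words of the annotation. Such factors are 0.418%, 0.445% and 0.182% of the genes with a starting mean of at least 100, so few would be expected.

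Defence and specialized metabolism gave 5 genes, and terpenoid synthases 3. MLP329 (AT2G01530), of the major latex protein family, was at 1052 and 1078 in wild type before cold, 1015 and 878 after 3 h and 130.1 and 134 after 24 h, and in cbfs-1 at 882 and 850.0, then 888 and 808, then 151 and 116. The 8 libraries at 0 h and 3 h lay between 808 and 1078, and the 4 at 24 h between 116 and 151. FMO GS-OX2 (AT1G62540), which oxidizes the sulfur of methionine-derived glucosinolates, was 4.94-fold lower in wild type and 4.92-fold in cbfs-1. JAL23, a jacalin-related lectin, was at 149 and 145 in wild type before cold, 98.4 and 156 after 3 h and 19.0 and 33.1 after 24 h, and in cbfs-1 at 99.3 and 133, then 62.0 and 81.1, then 47.4 and 21.7, and its cbfs-1 libraries at 3 h lay below both at 0 h without a call (-0.69, 95% interval -1.55 to 0.18, limma adjusted p = 0.349). The wound-responsive AT4G33560 and the methyltransferase AT3G61210 were 4.71-fold and 4.3-fold lower in wild type at 24 h. The terpenoid synthases AT5G48110, AT1G33750 and AT1G31950 were 12.4-fold, 4.85-fold and 4.1-fold lower in wild type at 24 h and 10.6-fold, 4.86-fold and 3.53-fold in cbfs-1.

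The 11 genes with an uncharacterized or loosely described product include 2 of the 5 largest changes at 24 h. AT4G27450, annotated as aluminum induced, was at 1339 and 1166 in wild type before cold, 1401 and 1705 after 3 h and 50.8 and 31.2 after 24 h, and in cbfs-1 at 1254 and 1301, then 1345 and 1562, then 38.8 and 27.2, 30.6-fold and 38.7-fold below the start. AT4G39675 was at 201 and 268 in wild type before cold, 163 and 277 after 3 h and 6.35 and 5.85 after 24 h, and in cbfs-1 at 203 and 277, then 156 and 289, then 2.16 and 6.34. At 24 h its libraries held 6 and 6 reads in wild type and 2 and 7 in cbfs-1, against a floor of 3 reads, so no fold is given. AT4G16008 was 10.7-fold lower in wild type and 13.9-fold in cbfs-1. AT4G13575 had wild type libraries at 24 h of 27.5 and 79.0, the widest replicate gap of the 85 genes in that group, at 1.49 on the log2 scale. The other 6 besides AT3G06070, namely AT3G50640, AT1G54890, AT1G52750, AT3G47560, AT1G67910 and AT5G47900, were 4.11-fold to 5.42-fold lower in wild type.

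Several of the 85 genes are neighbours. AT2G29290, AT2G29300 and AT2G29340 lie in 1 array of Rossmann-fold reductases on chromosome 2, which includes relatives of tropinone reductase. AT2G29300 was at 168 and 144 in wild type before cold, 97.3 and 189.9 after 3 h and 4.23 and 2.92 after 24 h, and in cbfs-1 at 159 and 101, then 102 and 143, then 3.23 and 0.906. Its libraries at 24 h held 4 and 3 reads in wild type and 3 and 1 in cbfs-1, while AT2G29290 and AT2G29340 stayed at 172 to 259.7 normalized reads over the 4 libraries. Other genes of the array differed: AT2G29310 changed by -1.66 and TRI by -1.21 in wild type at 24 h, both called in limma (adjusted p = 0.00146 and 0.00226), and AT2G29320 was at -0.26 and AT2G29360 at -0.05 without a call (adjusted p = 0.339 and 0.760). On chromosome 1, FMO GS-OX2 lies near AT1G62510 and AT1G62480, and the next copies FMO GS-OX3 and FMO GS-OX4 changed by -0.69 and by 3.81. FMO GS-OX4 went from 827 and 920.1 to 18079 and 6529.6 in wild type and from 781 and 823 to 2522 and 2125 in cbfs-1. AT4G12510 and AT4G12520 lie side by side on chromosome 4, where the lipid-transfer genes AT4G12490 and AT4G12500 changed by 2.05 and 1.67 (limma adjusted p = 0.000312 and 0.00166). The lipid-transfer gene AT4G12545, also nearby, changed by -1.10 (limma adjusted p = 0.000519). AT3G23470 and AT3G23510 share an annotation and lie close on chromosome 3, beside AT3G23480 and AT3G23530 of the same annotation, which changed by -2.43 and -1.18 (limma adjusted p = 0.00370 and 0.00559). Counts of such near-identical copies are uncertain, since the sources used here do not give the handling of shared reads.

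Over all 85 genes, those of the families above included, the annotation's own notes placed 19 of the 85 products in the endomembrane system (22.4%, against 8.45% of genes with a starting mean of at least 100), 8 in the vacuole (9.41% against 2.77%) and 7 in the cell wall or apoplast (8.24% against 3.31%). It placed 8 in the chloroplast (9.41% against 14.3%) and 2 in the nucleus (2.35% against 5.90%). 3 of the 6 genes with a note of water transport are among the 85. Notes are incomplete, and these shares were not tested. The genes were shorter than the wider set, with a median length of 2076 bp against 2578 bp.

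The edges of the set are steps in a continuous range. AT1G54890 and AT2G05160 had the lowest starting means inside, 101 and 101, and AT1G56680 and PCK2 the highest outside, at 95.2 and 93.6. AT1G31950 and AT5G47900 were just inside the limit at 24 h, both at -2.01, and FRO4 and AT2G18980 just outside, both at -1.99. At 3 h AT5G04970 (-0.50) and HSPRO2 (-0.49) were inside and J20 (-0.50) and WNK6 (-0.51) outside at the lower limit, and SEN1 (0.48) and AT3G49790 (0.43) inside and PGL1 (0.56) and IGMT1 (0.91) outside at the upper limit. GASA6 and TIP2;2 had the highest cbfs-1 ratios inside, both 1.5 after rounding, and AT3G43960 (1.50001) and SQE6 (1.51) the lowest outside. Of 221 genes with the starting level and the fall, 99 were more than 0.5 lower at 3 h, 10 were more than 0.5 higher, and 27 of the 112 flat ones missed the set by their level in cbfs-1.

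The replicates of the 85 genes were further apart than those of most genes. The median difference between replicates 2 and 1 was 0.22 to 0.32 in size on the log2 scale in the 6 groups, against 0.10 to 0.16 for genes with a starting mean of at least 100. When the rule was applied to the first replicates alone it chose 95 genes, and in the second replicates, which it had not used, all 95 were lower in wild type at 24 h, 89 by at least 1 log2 unit and 50 by at least 2, with a median of -2.05. In the second replicates 82 of the 95 were within 0.5 at 3 h. When it was applied to the second replicates alone it chose 90 genes, and in the first replicates 89 of the 90 were lower at 24 h, 85 by at least 1 and 57 by at least 2, with a median of -2.30. At 3 h 62 of these 90 were within 0.5. The 2 choices shared 30 genes. On means of both replicates, 7373 of the 14842 genes with a starting mean of at least 100 were lower in wild type at 24 h, 221 by at least 2. At 3 h 86.2% of the 14842 were within 0.5, also on means of both replicates. The 82 of 95 genes were near that share and the 62 of 90 were below it. Both of these counts rest on single libraries, so they are not measured like the share.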

How the data were processed

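RNA was measured in 12 libraries, 2 for each of 2 genotypes and 3 times, with replicate numbers taken from the titles. Its values are deposited as signal: read counts per gene that the authors, going by the table's name and values, divided by a DESeq2 size factor for each library (0.914 to 1.22). Whole reads could be recovered from all of them (100% within 0.001 of a read), and 3 reads correspond to 2.46 to 3.28. Per the submitters' processing notes the build was TAIR10 and the tools HTSeq 0.6.0, TopHat2 2.1.0 and Cufflinks 2.2.1, beside DESeq2. The sources used here do not give strandedness or the counting of shared reads, so overlapping and antisense genes and near-identical copies have uncertain values.

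Group means of the deposited signal gave the membership and the changes on log2(mean + 1). limma 3.58.1 (lmFit, contrasts.fit, eBayes with a trend, R 4.3.3) was fitted to log2(value + 1) of the 20666 genes with at least 10 in at least 2 libraries, with 6 group means, 6 residual degrees of freedom, and Benjamini-Hochberg adjustment over all genes (call: adjusted p below 0.05). This scale understates changes of low genes. edgeR 4.0.16 (quasi-likelihood) and DESeq2 1.42.0 on recovered reads were alternatives. Reads were simulated for cbfs-1 at 3 h against 0 h, with 20733 genes tested. limma recovered 86.0% and 80.0% of genes simulated at -1 and 1 and 100% of those at -2 and 2, with 6 false calls. The simulated libraries were drawn independently, without the shared deviations of same-numbered real libraries, so the rates may not hold for the real ones. These rates were not computed for the late cold-repressed genes separately. Their median replicate difference in cbfs-1 was 0.296 in size at 0 h and 0.220 at 3 h, on the log2 scale. It was 0.145 and 0.148 for genes with a starting mean of at least 100. Recovery among the late cold-repressed genes was not tested and may be lower.

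Whether the 2 libraries of a group are separate cultures is not stated in the labels, so a p-value measures only how far these libraries spread, possibly for technical reasons. Replicate reads differed beyond sampling noise, at a chi-square of 6.21 to 24.1 per degree of freedom. Deviations from the group mean in libraries of the same number had correlations of 0.334 to 0.565 where both groups were at 0 h or 3 h (6 pairs) and of 0.0428 to 0.242 where a 24 h group was involved (9 pairs). Nothing in the labels says what a number marks, so the limma fit has no replicate block.

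The members, the 30 gene lists (487 of 502 symbols matched to 1 locus), the motifs and the rule for named genes were chosen with earlier results of these data known. That rule takes the largest falls, the highest starting means, list members, calls, threshold neighbours, genome neighbours and genotype extremes; further members are named so that all 85 appear. The rule used all groups except cbfs-1 at 0 h and 3 h, so only cbfs-1 at 3 h against 0 h is tested. Symbols, products and windows came from the RefSeq annotation of TAIR10.1; its coordinates apply to the printed sequences only. Counting intervals were not used.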

Additional observations from a re-analysis of the deposited data

How the results depend on the processing

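With other limits the rule gave 228 genes at a fall of 1.5, 43 at a fall of 2.5 and 45 at a change at 3 h within 0.25. The other limits and scalings tried gave 61 to 117 genes, and leaving out 1 library gave 69 to 90 genes, of which 61 to 81 were among the 85; without replicate 1 of wild type at 0 h 61 of 83 were. In cbfs-1 at 3 h against 0 h, 0 of the 85 genes were called lower and 0 higher with limma. The replicate block gave 2 lower (AT3G06070, AT5G15500) and 1 higher (AT2G32880), at limma adjusted p = 0.000596, 0.0358 and 0.0476, with 14.8% of all genes called; with 2 libraries per group the numbers are not known to pair the samples. edgeR gave 1 lower and DESeq2 gave 1 lower. The cause was not tested. Leaving out each cbfs-1 library in turn gave 0 to 0 lower and 0 to 0 higher, with the lone library assumed to vary like the others, and the other pseudocounts, filter, scaling and library subsets tried gave 0. The median cbfs-1 change at 3 h ran from -0.20 to -0.03 over the left-out libraries, and that of HSPRO2 from -1.23 to -0.05. The median difference between genotypes at 24 h, which the choice helped to set, ran from 0.08 to 0.23. In the fit without a replicate block, the 95% interval at 3 h lay within 0.5 for 13 of the 85 genes, against 55.6% of genes. For the rest that fit leaves room for a change of that size. Same-numbered libraries at 0 h and 3 h deviated together, so the width of these intervals may include differences that they share.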
